A study of Homo sapiens with 6 samples.

Results

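The genes described here are 29 genes of cholesterol synthesis, uptake and storage and of the SREBP system that controls them, of 61541 genes in the deposited count table. They were chosen by name for their function, with earlier results of these data known. They were matched to the table through their Ensembl identifiers, and all of them were found. The cells were luciferases-expressing HepG2 cells, sequenced as 3 control libraries and 3 libraries after an exposure of 24 h to sedanolide at 100 μM. HepG2 is a human hepatoblastoma cell line, and sedanolide is a phthalide found in celery that the study examined as an activator of the antioxidant regulator NRF2. Both groups carry the luciferases SLR3, driven by antioxidant response elements, and ELuc, driven by the TK promoter, on a mouse artificial chromosome vector. Whether control cells received a vehicle is not given in the labels. The labels do not say whether replicates are separate cultures, so the p-values below measure only the spread between these libraries, which may be technical.

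Cholesterol is built from acetyl-CoA in the cytosol and the endoplasmic reticulum, first to mevalonate and isoprenoids, then to squalene, which is closed into a ring and trimmed to cholesterol. The genes of this route are switched on together by SREBP transcription factors. SREBP precursors sit in the membrane of the endoplasmic reticulum bound to SCAP, and INSIG proteins hold SCAP there when sterols are plentiful. When sterols run low, the complex moves to the Golgi, where the precursor is cut and its active part is released. Liver cells make, take up and export much of the cholesterol of the body, and liver X receptors, which sense oxidised sterols, raise the genes of export.

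Total expected counts were 16420258 to 22940963 in control libraries and 19027265 to 26714853 in sedanolide libraries. Levels are given as CPM, counts scaled to the TMM-normalised library size, in the order of the replicate numbers. Principal component 1 of the log2 CPM held 56.1% of the variance and did not follow the treatment. Its negative side, called side A here, held control 1, control 2 and sedanolide 3, and its positive side, called side B, held the remaining libraries, control 3, sedanolide 1 and sedanolide 2. Mitochondrially encoded genes took 1.43% to 2.15% of counts on side A and 4.23% to 5.22% on side B. What the sides stand for is not given in the labels, so values are also given with the side as a term in the fit or within each side. The sides were read from the same counts that are tested, so p-values with the side as a term serve as a description only. The line was checked against 7 markers of hepatocytes and HepG2 cells (AFP, ALB, APOA1, APOA2, HNF4A, FGB and GPC3), whose summed level was 14992.1 to 24779.0 CPM in control libraries and 11262.3 to 18453.8 CPM in sedanolide libraries. AFP was the largest part of this sum in every library. GPC3 stood at only 8.28 to 19.9 CPM, about the level of CD68 (8.85 to 14.7 CPM), a marker of the next list. Of 6 markers of immune, endothelial and stromal cells, VWF had 0 counts in all libraries, PTPRC, COL1A1 and COL3A1 stood at 0.182 CPM or less, and the sum of 12.9 to 20 CPM came from CD68 and PECAM1.

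None of the cholesterol genes passed the test in cells treated with sedanolide, and most had slightly lower means than in control cells. HMGCS1, the synthase that makes HMG-CoA, had the lowest log2 fold change (-0.58), followed by MSMO1, a sterol methyl oxidase (-0.52), and SREBF1, the gene of SREBP1 (-0.49). FDPS, which makes farnesyl diphosphate, had the highest (0.23). Of the 29 genes, 27 passed the filter on low counts, and INSIG1 and ABCG1 did not. A gene was called when its adjusted p was below 0.05 in the quasi-likelihood test of edgeR, with Benjamini-Hochberg adjustment over 14104 features, and its fold change was at least 1.5. By this rule 0 of 27 genes were called, against 0.674% of all features tested, and DESeq2 also called 0. Adjusted p ranged from 0.264 to 0.969 over the 27 genes in edgeR, and the smallest in DESeq2 was 0.106. In bulk RNA, fewer cells of a type and less RNA per cell cannot be told apart.

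The direction was negative for 23 of the 27 genes (85.2%, against 49.3% of all features tested), and their median log2 fold change was -0.18, against 0.01. At an unadjusted p below 0.05, 6 genes were lower and 0 were higher. These were HMGCS1, MVK, SQLE, HSD17B7, SREBF1 and NPC1L1, or 22.2% of the genes tested, where 6.57% of all features were lower at that level. The count depended on the libraries. It was 2 without control 1 (7.4%, against 4.4% of all features lower in the same fit), 3 without control 2 (11.1%, against 5.1%), 2 without sedanolide 1 (7.4%, against 5.2%) and 1 without sedanolide 2 (3.7%, against 3.8%), so in these fits the share of cholesterol genes was closer to that of all features, and at it without sedanolide 2. Without control 3, 5 genes were lower (18.5%, against 6.8%). Without sedanolide 3, 8 genes were lower (29.6%, against 12.2%) and 1, ACAT2, was higher. The groups did not overlap for 9 genes, all lower with sedanolide, which are these 6 with IDI1, DHCR7 and INSIG2. They make up 33.3% of the genes tested, against 9.66% of all features that were lower without overlap. Relative to the mean of the controls, the median log2 ratio of the 27 genes was 0.04, 0.01 and -0.05 in the control libraries and -0.16, -0.20 and -0.23 in the treated ones, each in the order of their numbers. All 3 sedanolide libraries thus lay below all 3 control libraries on this measure, while the median of all features was between -0.00 and 0.02 in every library. Because the ratio is taken to the mean of the controls themselves, the controls are held near 0. The separation is a description and not separate support. The 23 negative values and the 6 genes come from one pathway under shared control and are not independent of each other. The genes were also chosen with earlier results of these data known, so these shares are a description and not a test.

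**Figure D1:**
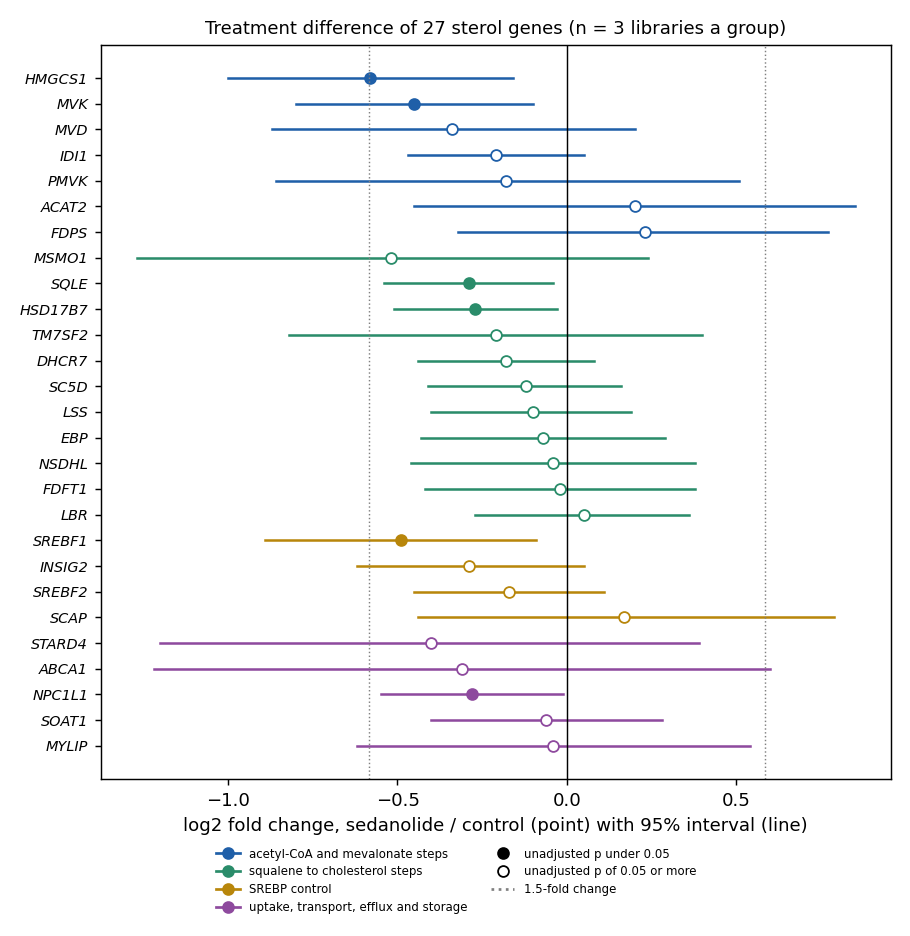
Log2 fold change of 27 cholesterol genes, sedanolide over control (horizontal axis), with the 95% interval from edgeR as a line and one row a gene, coloured by role. Filled points are the 6 genes with unadjusted p below 0.05, all to the left of 0, and dotted lines mark a 1.5-fold change. No gene passed the adjusted test, and the values run from -0.58 for HMGCS1 to 0.23 for FDPS.

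None of the 7 hepatocyte markers was called, but 6 also had negative log2 fold changes, with a median of -0.24. ALB (-0.43) and FGB (-0.45), or 28.6% of the markers against the 6.57% of all features, were lower at unadjusted p values of 0.0101 and 0.00884 in edgeR (adjusted p = 0.241 and 0.226). All 13 mitochondrially encoded genes had positive log2 fold changes, with a median of 0.62 (0.27 with the side as a term), and 0 were called. At an unadjusted p below 0.05, 1 of them was higher (7.7%, against 5.3% of all features). With the side as a term 4 of them were higher, where 9.4% of all features were. The mitochondrially encoded genes took 1.43% to 4.23% of counts in control libraries and 1.9% to 5.22% in sedanolide libraries. The part of either set of values in those of the cholesterol genes was not tested. For 13 of the 27 cholesterol genes, the 95% interval of the log2 fold change lay within a 1.5-fold change either way (0.585 on the log2 scale). For the rest a larger change is not excluded by the intervals, which reach down to -1.27 for MSMO1 and up to 0.85 for ACAT2.

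Promoter stretches are shown for some of these genes, picked mostly for the motif matches they hold and not by their values. SREBF1 and HSD17B7, both lower at an unadjusted edgeR p below 0.05, have RefSeq promoter windows but are not shown. No motif searched here was found for SREBF1. Windows of 250 bases before to 50 bases after a start (RefSeq, GRCh38.p14) were found for 25 of the 29 genes, with 31 windows in all. On both strands, 3 motifs were searched, the sterol regulatory element as TCACNCCAC, the CCAAT box that binds NF-Y, a partner of SREBP, as CCAAT, and the core of the antioxidant response element as TGACNNNGC. Capitals below mark these matches, with ATTGG as CCAAT on the other strand. HMGCS1 is shown from 200 to 101 bases before a RefSeq start (chr5:43313513-43313612, minus strand), as the gene with the smallest p. This stretch holds 1 of the 2 CCAAT boxes in its window. MVK (chr12:109573629-109573759, plus strand) and MSMO1 (chr4:165327479-165327644, plus strand) are shown for their CCAAT boxes, of which the MVK stretch holds 4 of the 5 in its window and the MSMO1 stretch all 4. NPC1L1 (chr7:44541380-44541535, minus strand) holds a CCAAT box and an antioxidant response element core. SREBF2 (chr22:41832965-41833010, plus strand) holds the sterol regulatory element, within an exon of the antisense RNA SREBF2-AS1.
HMGCS1: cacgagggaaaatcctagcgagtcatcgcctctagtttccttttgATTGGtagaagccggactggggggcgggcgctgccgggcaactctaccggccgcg
MVK: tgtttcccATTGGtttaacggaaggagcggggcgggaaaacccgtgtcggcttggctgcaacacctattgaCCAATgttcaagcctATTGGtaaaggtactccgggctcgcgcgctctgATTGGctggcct
MSMO1: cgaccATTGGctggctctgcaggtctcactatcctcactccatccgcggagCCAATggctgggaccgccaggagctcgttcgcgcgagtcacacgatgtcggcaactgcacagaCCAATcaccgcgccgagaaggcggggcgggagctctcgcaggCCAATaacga
NPC1L1: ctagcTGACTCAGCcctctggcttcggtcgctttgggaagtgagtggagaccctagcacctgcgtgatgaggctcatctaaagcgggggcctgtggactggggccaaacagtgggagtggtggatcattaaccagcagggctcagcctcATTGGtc
SREBF2: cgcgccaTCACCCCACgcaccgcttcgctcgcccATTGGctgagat

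A CCAAT box was present in 21 of the 31 windows (67.7%), against 34.6% of 35116 RefSeq windows of the same length. At least 3 copies were present in 7 of them (22.6%, against 3.3%). The strict sterol regulatory element was present in 1 window, that of SREBF2, and in 1.13% of all windows. The antioxidant response element core was present in 6 windows (19.4%, against 13.35%), which belong to EBP, HMGCS1, INSIG2, LBR, NPC1L1 and SOAT1. For HMGCS1 the cores lie in another window of the gene than the one shown above. None of these matches is evidence that a factor binds there, and a window without a match lacks these letters only.

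Among the 7 genes of the acetyl-CoA and mevalonate steps, HMGCS1, MVK and IDI1 were lower without overlap, 5 had negative log2 fold changes, and the median was -0.21. HMGCS1 (chr5:43287470-43313512, minus strand) stood at 188.8, 234.6 and 161.4 CPM in the controls and at 114.9, 125.9 and 150.3 CPM with sedanolide. The lowest control was control 3 and the highest treated library was sedanolide 3, and the groups did not overlap. Means were 194.9 ± 37.0 and 130.4 ± 18.1 CPM (SD, n = 3). The log2 fold change was -0.58 ± 0.177 (SE), with an interval of -1.0 to -0.16 and an edgeR p of 0.0132 (adjusted p = 0.264). It was -0.50 within side A and -0.44 within side B, and with the side as a term the adjusted p was 0.0511. With each library left out in turn, the log2 fold change stayed between -0.70 and -0.43 and the unadjusted p was below 0.05 in all 6 fits. In the second deposited table, of TPM (corrected for transcript length), HMGCS1 in sedanolide 3 (105.6 TPM) was above control 3 (93.9 TPM), so the groups overlapped on that scale.

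MVK, mevalonate kinase (chr12:109573255-109598125, plus strand), was at 28.2, 23.6 and 29.1 CPM in the controls and at 22.8, 17.7 and 18.7 CPM with sedanolide. Its highest treated library lay just under the lowest control. The log2 fold change was -0.45 ± 0.150 (SE), with an edgeR p of 0.0191 (adjusted p = 0.297), and it was -0.47 within side A and -0.55 within side B. MVK shares 225 exon bases with MMAB on the opposite strand, which had 149.9% of its counts. IDI1, the isomerase of isopentenyl diphosphate, stood at 95.8, 107.9 and 106.9 CPM in controls and at 92.8, 89.9 and 85.4 CPM with sedanolide. These groups were also separate, but by a narrow margin, and the log2 fold change was -0.21 ± 0.110 (SE; edgeR, adjusted p = 0.500), with -0.26 within side A and -0.24 within side B. The remaining genes of this section were MVD, mevalonate diphosphate decarboxylase (-0.34), PMVK, phosphomevalonate kinase (-0.18), ACAT2, the thiolase that joins acetyl-CoA units (0.20), and FDPS (0.23). All of these had unadjusted p values of 0.185 or more and overlapping groups. ACAT2 shares 454 exon bases with TCP1 on the opposite strand, which had 309.3% of its counts, and the strand setting of the counting is not given in the sources used here.

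With the side of component 1 in the fit, 5 of these 7 genes were lower at an unadjusted p below 0.05, namely HMGCS1, MVK, PMVK, MVD and IDI1, and 0 were called. Their median log2 fold change was then -0.45. MVD went from -0.34 to -0.49, PMVK from -0.18 to -0.45 and ACAT2 from 0.20 to -0.06. Over all 27 genes, 10 were lower and 0 higher at that level (37.0%), where 10.1% of all features were lower in the same fit. The 4 added genes were PMVK, MVD, IDI1 and TM7SF2. The median over the 27 genes was -0.17 in this fit, close to the value without the term. Because the side was read from these same counts, the p-values of this fit may be too small. The counts of genes lower in it are no independent test.

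Of the 11 genes from squalene to cholesterol, 10 had negative log2 fold changes, SQLE, HSD17B7 and DHCR7 were lower without overlap, and the median was -0.12 (-0.17 with the side as a term). SQLE, the epoxidase of squalene (chr8:124998497-125022283, plus strand), stood at 200, 208.6 and 188.1 CPM in controls and at 160.3, 160.0 and 167.5 CPM with sedanolide. The 3 treated libraries were close together and all below the controls. The log2 fold change was -0.29 ± 0.106 (SE; edgeR, adjusted p = 0.348), with -0.29 within side A and -0.25 within side B. HSD17B7, which reduces a sterol ketone, stood at 34.8, 34.1 and 32.7 CPM in controls and at 29, 27.4 and 27.8 CPM with sedanolide. The log2 fold change was -0.27 ± 0.104 (SE; edgeR, adjusted p = 0.370), with -0.32 within side A and -0.23 within side B. Its 2 pseudogenes had 40.08 counts on average against 651.22 for the gene, so reads that match both could be shared among them. DHCR7, which reduces the last double bond before cholesterol, stood at 311.5, 266.0 and 282.9 CPM in controls and at 263.4, 248.3 and 247.8 CPM with sedanolide. The margin between control 2 and sedanolide 1 was narrow, and the log2 fold change was -0.18 ± 0.113 (SE; edgeR, adjusted p = 0.583), with -0.23 within side A and -0.16 within side B. In TPM, DHCR7 in sedanolide 3 (209.6) was above control 3 (208.8).

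The other genes of these steps had overlapping groups and unadjusted p values of 0.151 or more in edgeR. MSMO1 had the largest difference in means, 155.9 ± 49.3 CPM in controls and 109.0 ± 39.4 CPM with sedanolide (SD, n = 3), but its libraries differed by side, and the log2 fold change went from -0.52 to -0.27 with the side as a term. TM7SF2, a sterol reductase, was at -0.21, and its 18 exon bases shared with VPS51 on the same strand make its counts less certain. LSS, which closes squalene epoxide into the sterol ring (-0.10), SC5D, a sterol desaturase (-0.12), EBP, a sterol isomerase (-0.07), NSDHL, which removes a carboxyl group from the ring (-0.04), and FDFT1, which makes squalene (-0.02), were near 0. LBR, a sterol reductase of the nuclear membrane, was at 0.05. The interval of FDFT1 was -0.42 to 0.38, so a small change in either direction could not be told apart from none.

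**Figure D2:**
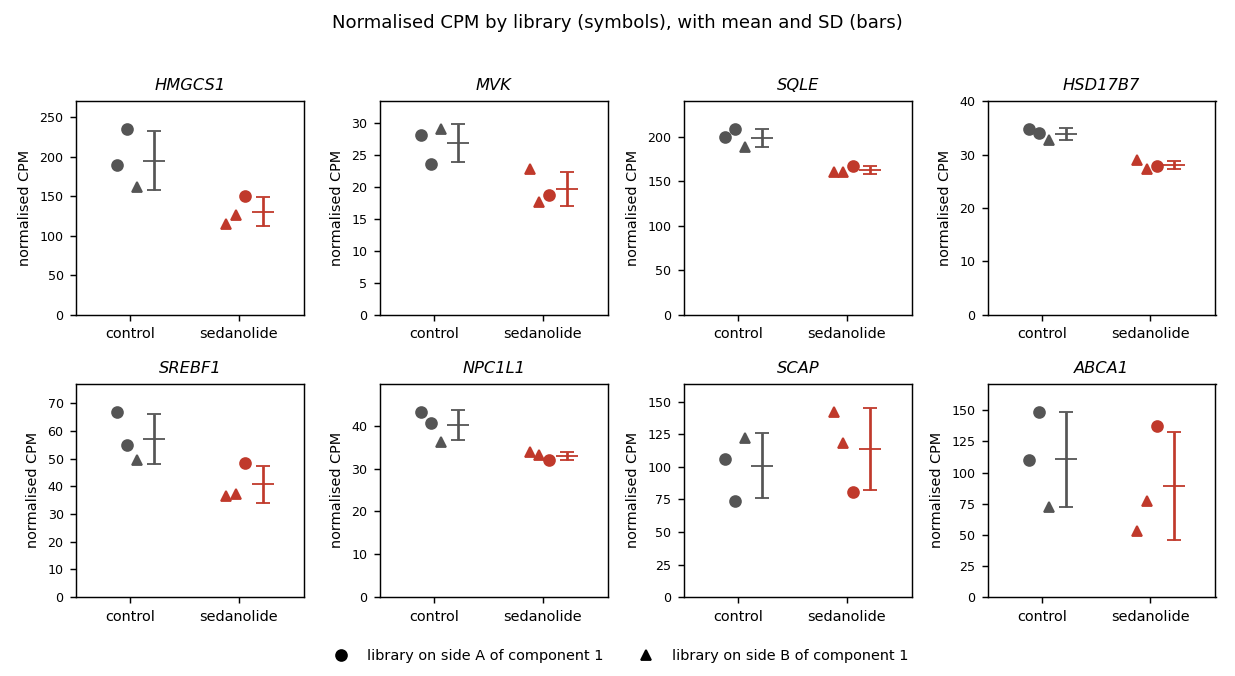
Normalised CPM (vertical axes, linear from 0) of 8 genes in each library, with circles for side A and triangles for side B of component 1, and bars for the group mean and SD. The first 6 panels are the genes with unadjusted p below 0.05, whose groups do not overlap. SCAP and ABCA1 follow the side rather than the treatment, as SCAP is higher on side B and ABCA1 lower in each group.

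In the SREBP system, SREBF1 and INSIG2 were lower without overlap, SREBF2 overlapped between groups and SCAP had a higher mean with sedanolide. SREBF1 (chr17:17810399-17837002, minus strand) stood at 67.1, 55.0 and 49.5 CPM in controls and at 36.6, 37.2 and 48.4 CPM with sedanolide. Control 3 and sedanolide 3 nearly met, and the other treated libraries were well below the controls. The log2 fold change was -0.49 ± 0.170 (SE), with an edgeR p of 0.0231 (adjusted p = 0.318), and it was -0.34 within side A and -0.44 within side B. In TPM the groups overlapped, with control 3 at 19.6 and sedanolide 3 at 24.5. SREBF1 shares 556 exon bases with RAI1 on the opposite strand, which had 93.7% of its counts. SREBF2, which encodes SREBP2 (chr22:41833105-41907306, plus strand), stood at 262.4, 239.4 and 219.5 CPM in controls and at 204.4, 212.2 and 224.7 CPM with sedanolide. Sedanolide 3 was above control 3, and the log2 fold change was -0.17 ± 0.118 (SE; edgeR, adjusted p = 0.621), with an interval of -0.45 to 0.11.

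SCAP, the escort of SREBP, stood at 106.4, 73.7 and 122.5 CPM in controls and at 142.6, 118.5 and 80.4 CPM with sedanolide. Both groups had high libraries on side B and low ones on side A, and the log2 fold change of 0.17 ± 0.260 (SE; edgeR, adjusted p = 0.823) went to -0.03 with the side as a term. INSIG2, a retention protein of SCAP, stood at 126.2, 157.5 and 123.0 CPM in controls and at 103.5, 107.4 and 122.8 CPM with sedanolide. Control 3 and sedanolide 3 were almost equal, and the log2 fold change was -0.29 ± 0.143 (SE; edgeR, adjusted p = 0.488), with -0.22 within side A and -0.24 within side B. INSIG1, the related protein whose gene is a classical SREBP target, had counts of 0, 2 and 0 in controls and 0, 0 and 1 with sedanolide. A count of 0 allows up to 3 counts in a library, and all libraries were at or under that floor, so no fold change is given. Whether these counts reflect little INSIG1 RNA or a loss in annotation or counting was not tested. They are therefore not read as absence of the RNA.

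Of the 6 genes of uptake, transport, efflux and storage, 5 were tested and all had negative log2 fold changes, with a median of -0.28. Once the side was in the fit, 3 genes were negative and the median of the 5 was -0.03, and it was -0.06 within side A and -0.13 within side B, again with 3 negative in each. NPC1L1, which takes up cholesterol and is the target of ezetimibe (chr7:44512535-44541330, minus strand), stood at 43.3, 40.6 and 36.3 CPM in controls and at 33.9, 33.1 and 32.0 CPM with sedanolide. The treated libraries were within a narrow range below all controls, and the log2 fold change was -0.28 ± 0.114 (SE; edgeR, adjusted p = 0.395). It was -0.40 within side A and -0.13 within side B. ABCA1, which passes cholesterol to lipid-poor apolipoproteins and is a target of liver X receptors, stood at 110.4, 149.0 and 72.7 CPM in controls and at 52.8, 77.5 and 137.5 CPM with sedanolide. The order followed the side, with sedanolide 3 among the controls of side A and control 3 among the treated libraries of side B. Its log2 fold change was -0.31 ± 0.388 (SE; edgeR, adjusted p = 0.784) and -0.03 with the side as a term, and the side difference of -0.96 was the largest of the 27 genes. STARD4, a carrier of cholesterol, was at -0.40 (edgeR, adjusted p = 0.675), but at -0.17 with the side as a term and -0.07 within side A, and at -0.77 to -0.13 with a library left out. SOAT1, which esterifies cholesterol for storage, was at -0.06 and MYLIP, a ubiquitin ligase induced by liver X receptors, was at -0.04. ABCG1, another exporter, had 0 counts in all libraries.

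The difference between sides, from the fit with both terms, was larger than the treatment difference of the fit without the side for 16 of the 27 genes. The sides split the component with the most variance, so a larger side difference follows in part from how they were chosen. This count was not made over all features. The median absolute side difference was 0.34 on the log2 scale, against 0.21 for the treatment, where all features had 0.29 and 0.19. On side B, 12 genes were higher and 15 lower than on side A. Across the 27 genes, the side difference and transcript length had a Spearman correlation of -0.71 (-0.30 over 14079 genes with a known length), and side difference and transcript GC content one of 0.52 (0.09). These are correlations across genes that share the same 6 libraries, and are given as a description only. The treatment difference was negative within both sides for 19 of the 27 genes and positive within both for 2. The same count was not made over all features, so it is given as a description only. The median treatment difference of the 27 genes was -0.23 within side A, which holds 2 controls and 1 treated library. It was -0.17 within side B, which holds 1 control and 2 treated libraries.

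**Figure D3:**
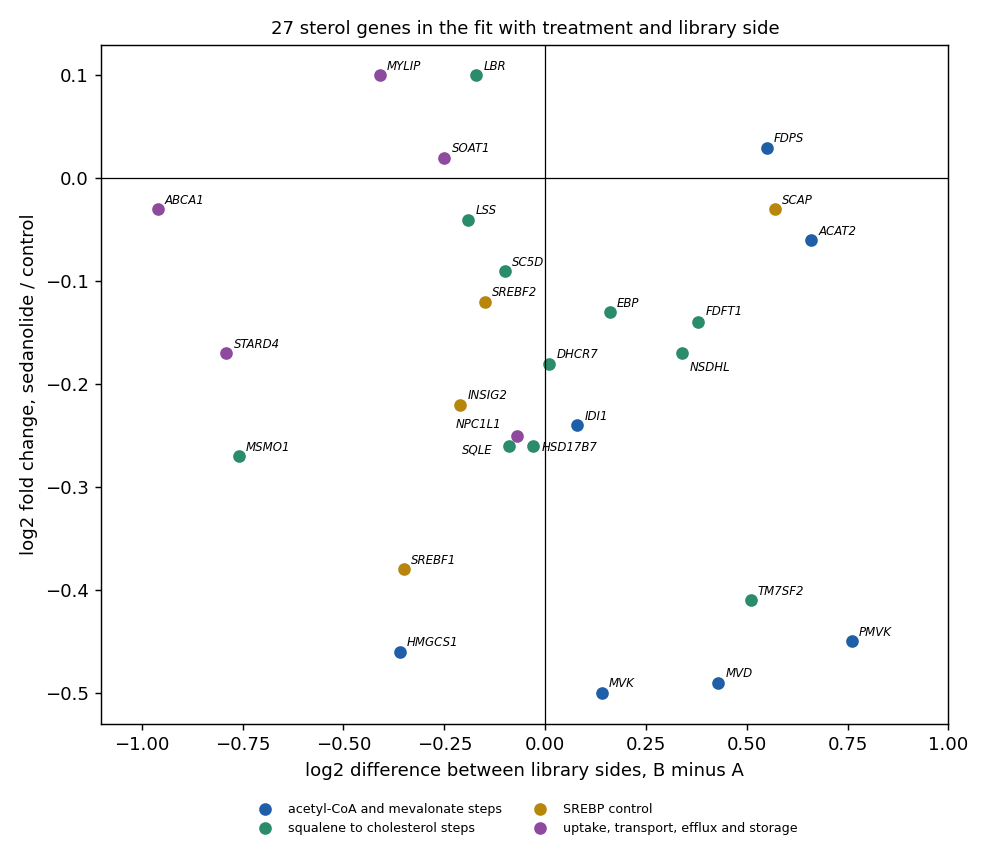
Log2 difference between libraries of side B and side A (horizontal axis) and log2 fold change of sedanolide over control (vertical axis) for 27 genes, both from the fit that holds both terms. Points are genes, coloured by role. Mevalonate genes HMGCS1, MVK, MVD and PMVK lie lowest at -0.45 to -0.50 with side differences from -0.36 to 0.76, and ABCA1, MSMO1 and STARD4 lie far to the left at about the same treatment value as other genes.

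Levels between genes were compared in TPM, which is corrected for length, for the 26 genes in the second table (INSIG1, ABCG1 and MYLIP are not in it). In control cells FDPS (322.3 ± 51.3 TPM; SD, n = 3) and FDFT1 (312.8 ± 21.7 TPM) were the most abundant and did not differ beyond their spread, followed by DHCR7 (225.7 ± 27.6 TPM) and ACAT2 (178.7 ± 24.8 TPM). A group of genes from HMGCS1 (123.8 ± 32.6 TPM) to SQLE (104.7 ± 13.1 TPM) came next, with EBP, MSMO1 and INSIG2 between them, and these overlap in spread. SREBF2 (72.5 ± 11.4 TPM) was above SREBF1 (29.7 ± 9.06 TPM) in controls. The transporters ABCA1 (16.3 ± 6.5 TPM) and NPC1L1 (12 ± 1.66 TPM) were the least abundant of the 26 genes, and the first lay within its own spread of the second.

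**Figure D4:**
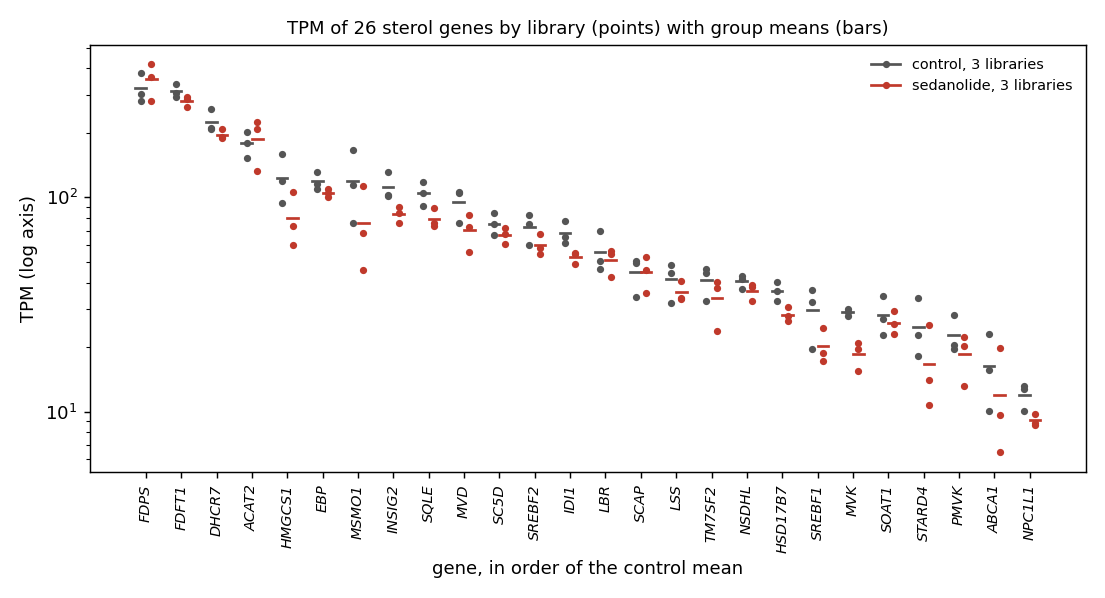
TPM (log axis) of 26 cholesterol genes in each library, ordered by the control mean, with controls in grey and sedanolide libraries in red and bars for group means. The order runs from FDPS at 322.3 TPM to NPC1L1 at 12 TPM in controls, and sedanolide means lie below or near control means for most genes.

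Genes of related pathways, outside the 29, were not called either. Of 7 genes of SREBP processing and sterol sensing, 0 were called and the median log2 fold change was -0.04. RNF139, a ubiquitin ligase, was at 0.14 (edgeR, adjusted p = 0.718). Of 9 genes of the isoprenoid branch, which draws on farnesyl diphosphate, 0 were called and the median was 0.05, with PDSS1 at 0.47 (edgeR, adjusted p = 0.466) and FNTA at 0.19 (adjusted p = 0.696). Among 12 genes of sterol trafficking and esters, of which 10 were tested, the median was -0.15. NCEH1, which frees cholesterol from its esters, was at -0.61 ± 0.157 (SE; edgeR, adjusted p = 0.186). With the side as a term, the adjusted p of NCEH1 was 0.0453, with a fold change below 1.5.

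Of 5 liver X receptor genes and targets, 0 were called and the median was -0.12, with ABCG5 at -0.37 (edgeR, adjusted p = 0.512) and ABCG8 at -0.20 (adjusted p = 0.620), which form an exporter of sterols into bile. Of 9 fatty acid synthesis genes that SREBP1 controls, 0 were called and the median was -0.10. GPAM, which starts glycerolipid synthesis, was at -0.54 (edgeR, adjusted p = 0.567) and ELOVL6, a fatty acid elongase, at -0.28 (adjusted p = 0.587). None of these 5 lists held a called gene. Of their 40 tested genes, 1, NCEH1, was lower at an unadjusted p below 0.05, where 6.57% of all features were, so this count is not above that share.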

How the data were processed

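The 6 libraries (3 control, 3 sedanolide) were sequenced from HepG2 cells with luciferase reporters. The labels name FastQC, Trimmomatic, STAR and RSEM and the genome GRCh38, while versions and the annotation release are not given in the sources used here. mRNA was captured, and directional libraries were sequenced as 150 bp paired-end reads. One deposited table holds expected counts as RSEM gives them, not normalised, for 61541 genes and 2 luciferases, and the other deposited table holds log2(TPM + 1) for 11006 rows, whose filter is not stated. Total expected counts were 16420258 to 26714853, and their number limits the precision for low genes. The floor of 3 counts covers error of counting alone.

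Rounded counts were fitted in R 4.3.3 with edgeR 4.0.16 (filterByExpr, TMM, robust quasi-likelihood test) on all 14104 features that passed the filter, of which 27 are members. A call needed an adjusted p (Benjamini-Hochberg) below 0.05 with at least a 1.5-fold change, as the study set for DESeq2. DESeq2 1.42.0 and limma 3.58.1 were alternatives, as were other normalisations and filters, leaving out each library, the replicate number as a block and a term for the side of component 1. Values within each side were added after seeing the data. Intervals are 95% intervals of the fitted log2 fold change. Fold changes in the TPM table are on the log2(TPM + 1) scale. Replicate numbers came from the labels. The correlations of same-numbered libraries, as deviations from their group mean, were -0.133, -0.295 and -0.73, and the main fit did not pair them. The split by side weighs on these correlations, so they cannot show whether same-numbered libraries were handled together. Positions come from GENCODE 44, and promoters and motifs from RefSeq (GRCh38.p14). The procedure was tested on simulated counts with the same dispersion for all genes, no side component and changes larger than those of the cholesterol genes. That test does not cover changes as small as theirs. All members are named; values per library are given for those with separate groups or an unadjusted p below 0.05 and for the SREBP genes, HMGCS1, SQLE and ABCA1. Of related lists, the 2 genes with the smallest p are named, except 2 genes that are not reported here and stay in all fits and counts. Members and lists were chosen with earlier results of these data known.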

Additional observations from a re-analysis of the deposited data

How the results depend on the processing

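No cholesterol gene passed both thresholds in any of the fits on all libraries or with a library left out. Genes past both thresholds over all features numbered 95, and 328 with DESeq2, 158 with no low-count filter, 381 with the side as a term, 61 with limma on log2(TPM + 1) and 0 with the replicate block, where 772 genes had an unadjusted p below 0.05 and 2 cholesterol genes did. With each library left out in turn the number was 0 to 136, and it was 0 without control 1 (1067 genes at an unadjusted p below 0.05) and without sedanolide 2 (889 genes). Cholesterol genes at an unadjusted p below 0.05 numbered 6 (22.2%, against 11.9% of all features in either direction), and 3 with no low-count filter (10.7%, against 7.8%), 2 with the replicate block (7.4%, against 5.5%), 10 with the side as a term (37.0%, against 19.5%) and 1 to 9 with a library left out, from 3.7% against 6.3% without sedanolide 2 to 33.3% against 23.0% without sedanolide 3, where 1 of the 9 was higher. Their median log2 fold change of -0.18 was -0.22 by library size only, -0.23 within side A, -0.29 with limma on log2(TPM + 1), -0.30 with limma on log2(TPM + 0.1), where all genes had -0.07 and -0.08, and -0.23 to -0.17 with a library left out.

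Of 457 values of single genes over 17 alternatives, 28 changed sign, in 12 genes. With the side as a term these were ACAT2 (-0.06), SCAP (-0.03), MYLIP (0.10) and SOAT1 (0.02). Within side A they were ACAT2 (-0.30), FDPS (-0.09), SCAP (-0.17), ABCA1 (0.08) and SOAT1 (0.01), and within side B LSS (0.01), MYLIP (0.29) and SOAT1 (0.01). LBR was -0.11 with both limma fits. With a library left out, the values ranged from -0.19 to 0.02 for EBP, -0.21 to 0.08 for MYLIP, -0.02 to 0.37 for SCAP, -0.15 to 0.06 for SOAT1, -0.36 to 0.07 for PMVK, -0.12 to 0.13 for FDFT1, -0.16 to 0.10 for NSDHL and -0.01 to 0.14 for LBR. The cause was not tested. With 3 libraries a group and a biological coefficient of variation of 0.199, small changes of single genes were not detectable.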
